A study of Homo sapiens with 21 samples.

Results

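The 10 genes GPAT2, C1orf115, CNTN3, PPP1R14A, EPB41L3, OLFML2A, RGCC, NTM, DENND2A and TINAGL1 were taken from a table of 61544 genes of BJ cells, an established line of normal human skin fibroblasts. They were chosen by their measured levels, as genes with the largest falls in mean level between an earlier passage and P30 or P33. All 10 are protein-coding, and all 10 passed the filter on low counts that left 16821 genes for testing. The passages that chose them are described below without tests. The test of DOX against DMSO used libraries that had no part in the measured falls, though the choice was made with earlier results of these data known.

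RNA was sequenced after poly(A) selection from 7 groups of 3 libraries each. Passage libraries were P3, P11, P24, P30 and P33, where the number is the passage of the culture. The other groups were P11 cells given DOX, named as doxorubicin in the series title, at 50 ng/ml, and P11 cells given DMSO, the solvent. All groups were BJ cells, and no genetic change is named for any of them. The labels do not give the length of the treatment or say that replicates were separate cultures, so the p-values speak only for the spread among these libraries, which may be technical.

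Human fibroblasts divide a limited number of times in culture and then enter replicative senescence, a lasting arrest with changes in adhesion, matrix and secretion. Doxorubicin poisons topoisomerase II and breaks DNA, and at low doses it drives fibroblasts into an arrest of the same kind without further passages. The 10 genes have different roles in such a cell. OLFML2A and TINAGL1 are secreted, CNTN3 and NTM are adhesion proteins of the cell surface, EPB41L3 and PPP1R14A act on the cytoskeleton, C1orf115 and DENND2A act in drug efflux and membrane traffic, GPAT2 makes lipid and RGCC acts on the cell cycle.

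Libraries held 12.946 to 27.194 M counts. All 14 fibroblast markers on the list were detected in every group, and their summed level was 18900 to 21400 CPM (counts scaled to library size) at P33 and 27800 to 28600 CPM at P3, with 4 of them higher and 8 lower at P33. It was 51400 to 53300 CPM with DOX and 50300 to 51500 CPM with DMSO, with 3 higher and 9 lower. The 10 smooth muscle and pericyte markers summed to 239 to 254 CPM at P33 and 387 to 401 CPM at P3 (2 higher, 6 lower), and to 194 to 217 CPM with DOX and 149 to 154 CPM with DMSO (4 higher, 1 lower). Endothelial markers summed to at most 6.73 CPM and leukocyte markers to at most 2.56 CPM in any library. Among keratinocyte markers KRT5 was at 0 in every group, and the list summed to 213 to 223 CPM at P33 and 311 to 336 CPM at P3, with 3 of 6 tested higher and 1 lower. Most of that sum was DSP, a desmosome protein (151 CPM at P33 and 302 CPM at P3), while CLDN1, a tight junction protein, rose to 38.4 CPM at P33, against 4.58 CPM at P3. The list summed to 363 to 451 CPM with DOX and 339 to 391 CPM with DMSO, with CLDN1 higher (7.69 CPM with DOX and 1.56 CPM with DMSO) and none lower. The neural, Schwann and melanocyte markers, among which SOX10 and TYR were at 0 in all passage groups, summed to 41.2 to 42.1 CPM at P33 and 33.7 to 36.2 CPM at P3 (1 higher, 2 lower), and to 57.5 to 58.9 CPM with DOX and 82.0 to 85.6 CPM with DMSO (2 lower). The adipocyte markers summed to 19.6 to 21.5 CPM at P33 and 29.0 to 32.7 CPM at P3 (1 higher, 1 lower), and to 15 to 17.7 CPM with DOX and 22.2 to 25.3 CPM with DMSO (1 lower). Most of the neural sum was MITF (39.8 CPM at P33, 30.3 at P3, 56.1 with DOX and 81.5 with DMSO). Most of the adipocyte sum was PPARG (18.9 CPM at P33, 30.1 at P3, 14.9 with DOX and 23.0 with DMSO). At P30 and P24, between which most of the 10 genes had their largest step, fibroblast markers summed to 31000 to 32100 CPM at P30 and 32800 to 34900 CPM at P24, and smooth muscle and pericyte markers to 324 to 339 CPM at P30 and 347 to 363 CPM at P24. Keratinocyte markers summed to 271 to 297 CPM at P30 and 391 to 409 CPM at P24, neural markers to 73.2 to 76.5 CPM at P30 and 44.2 to 51.7 CPM at P24, and adipocyte markers to 17.6 to 19.7 CPM at P30 and 22.3 to 23.3 CPM at P24. In bulk RNA, fewer cells of a type and less RNA per cell cannot be told apart, and the part of these markers in the results was not tested.

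Between P24 and P30 lay the largest step down for 7 of the 10 genes, and between P30 and P33 for the remaining 3, PPP1R14A, EPB41L3 and TINAGL1. GPAT2, C1orf115, CNTN3, PPP1R14A, EPB41L3, OLFML2A and TINAGL1 were at their lowest at P33, with 4.96% to 13.1% of their P3 mean. RGCC, NTM and DENND2A were at their lowest at P30, with 7.15%, 8.06% and 9.04% of the P3 mean, and stood at 39.6%, 40.4% and 61.9% of it at P33. For these 3 genes the name of a late-passage loss therefore holds at P30 and only in part at P33.

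**Figure D1:**
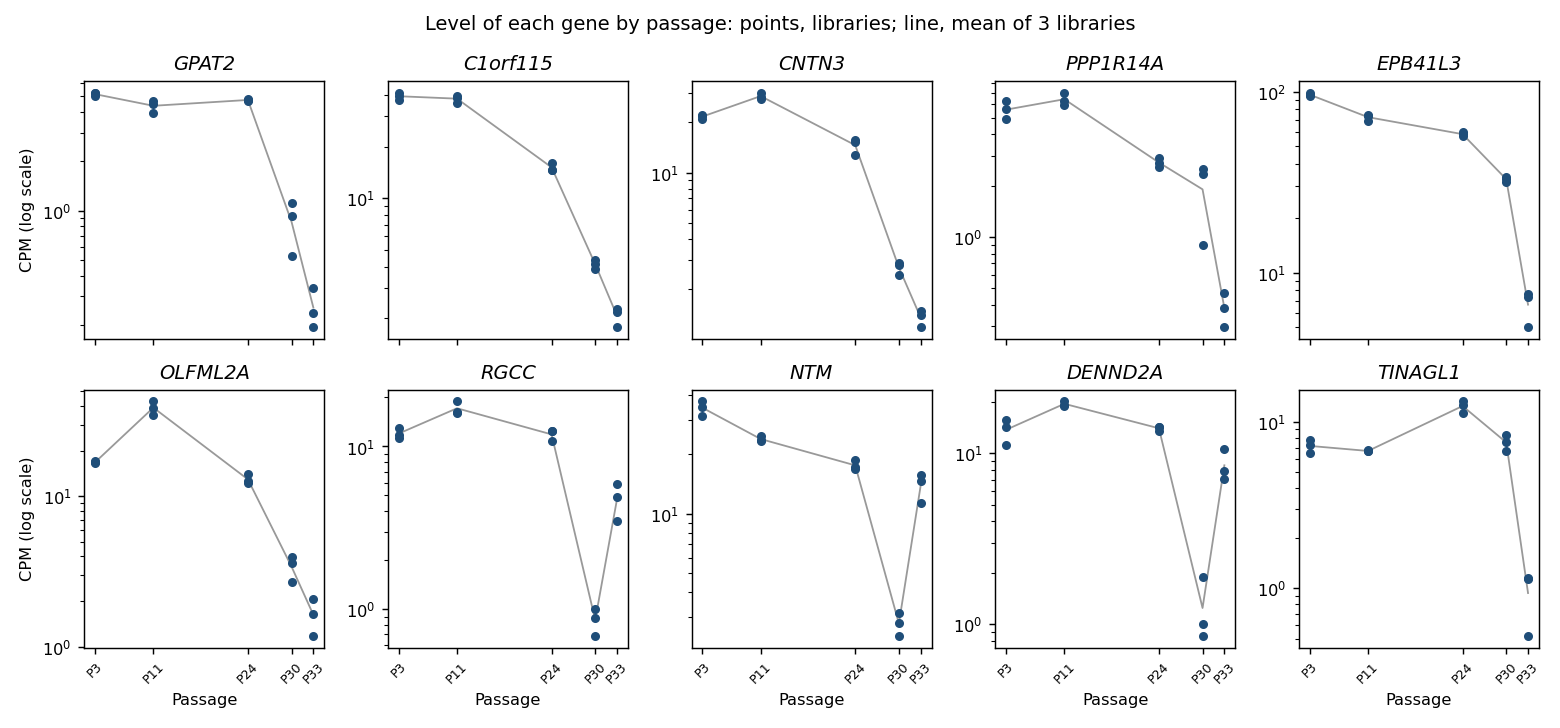
Level of each of the 10 genes in CPM (log scale, a scale per panel) in the 15 passage libraries, against passage. Points are libraries and lines join the means of 3, and RGCC, NTM and DENND2A dip at P30 and stand higher at P33 while the other 7 are lowest at P33.

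All 10 genes had their P33 libraries below their P3 libraries. Across all tested genes, 34.9% had P33 libraries wholly below P3 libraries, and 67.8% were called by the test, 33.3% lower, which is given for scale only because this contrast chose the members. These shares count 719 genes that passed the filter but had no reads at P33 or P3, and without them 70.8% were called. Setting the loss at a mean below 50% of the P3 mean that was not regained by P33, C1orf115 and PPP1R14A were past it from P24. GPAT2, CNTN3, EPB41L3, OLFML2A, RGCC and NTM were past it from P30, and TINAGL1 at P33 only. DENND2A met this at no passage, since its P33 mean was above the threshold.

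**Figure D2:**
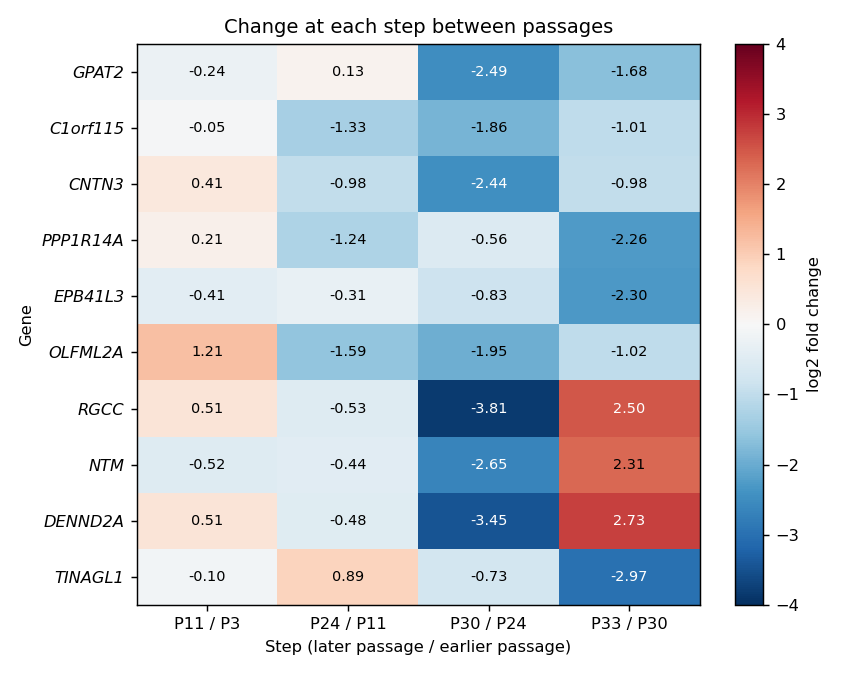
Log2 fold change of each gene at each step from an earlier to the next later passage, from the fit over all libraries (rows, genes, columns, steps, colour and printed value, log2 fold change). The darkest blue cells are RGCC (-3.81) and DENND2A (-3.45) at P30 with P24, and the red cells at P33 with P30 are RGCC, NTM and DENND2A.

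The bases just upstream of the start sites are shown for the genes that moved together over the passages, first the 3 that were lowest at P30 and higher again at P33, then 3 of those that were lower at each passage from P24 on. Each is the 250 bases before the first start that RefSeq lists for the gene on GRCh38.p14, in its own direction from 5′ to 3′. Capitals mark matches on either strand to the letters GGGCGG of the GC box, to those of the CCAAT box and to the letters GGAATG, a motif of TEAD factors. The RGCC window is chr13:41457300-41457549 (plus strand), the NTM window chr11:131370365-131370614 (plus strand) and the DENND2A window chr7:140640814-140641063 (minus strand).
RGCC: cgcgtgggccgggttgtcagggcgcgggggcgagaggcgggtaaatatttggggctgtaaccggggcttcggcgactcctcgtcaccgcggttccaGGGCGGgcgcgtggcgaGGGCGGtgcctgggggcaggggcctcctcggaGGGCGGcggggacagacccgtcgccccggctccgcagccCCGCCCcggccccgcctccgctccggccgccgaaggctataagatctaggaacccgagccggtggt
NTM: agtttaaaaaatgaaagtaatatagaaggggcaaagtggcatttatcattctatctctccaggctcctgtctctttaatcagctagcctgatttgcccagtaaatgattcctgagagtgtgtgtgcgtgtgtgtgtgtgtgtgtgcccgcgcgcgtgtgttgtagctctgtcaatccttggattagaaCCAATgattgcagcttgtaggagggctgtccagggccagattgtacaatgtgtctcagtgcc
DENND2A: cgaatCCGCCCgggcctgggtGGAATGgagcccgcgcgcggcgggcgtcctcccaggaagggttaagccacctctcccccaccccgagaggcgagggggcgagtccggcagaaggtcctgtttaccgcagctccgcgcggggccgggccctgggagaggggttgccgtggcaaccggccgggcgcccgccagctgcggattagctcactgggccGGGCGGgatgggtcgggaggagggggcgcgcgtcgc
The second set is C1orf115 at chr1:220690113-220690362 (plus strand), CNTN3 at chr3:74614660-74614909 (minus strand) and OLFML2A at chr9:124776883-124777132 (plus strand).
C1orf115: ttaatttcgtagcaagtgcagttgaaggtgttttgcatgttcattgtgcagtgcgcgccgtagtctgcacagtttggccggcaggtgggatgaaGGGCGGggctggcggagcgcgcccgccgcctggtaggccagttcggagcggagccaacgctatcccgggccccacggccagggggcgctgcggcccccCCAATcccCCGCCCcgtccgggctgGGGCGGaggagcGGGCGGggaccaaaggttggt
CNTN3: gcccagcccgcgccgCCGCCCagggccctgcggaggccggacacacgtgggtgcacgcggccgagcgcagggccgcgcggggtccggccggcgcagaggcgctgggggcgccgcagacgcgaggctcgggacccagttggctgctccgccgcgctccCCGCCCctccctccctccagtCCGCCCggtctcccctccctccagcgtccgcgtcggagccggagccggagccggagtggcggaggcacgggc
OLFML2A: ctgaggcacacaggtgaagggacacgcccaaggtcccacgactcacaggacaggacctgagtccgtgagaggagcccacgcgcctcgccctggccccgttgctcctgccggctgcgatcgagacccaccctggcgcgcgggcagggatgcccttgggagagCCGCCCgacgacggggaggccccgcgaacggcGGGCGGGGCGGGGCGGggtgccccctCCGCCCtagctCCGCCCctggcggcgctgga
Which start the cells used is not known, and the DENND2A start lies 33180 bases inside the span that the count table gives for the gene. RGCC and DENND2A were rich in CpG, with 34 and 31 CpG sites and 75.2% and 75.6% GC, whereas NTM had 5 CpG sites and 46.4% GC. C1orf115, CNTN3 and OLFML2A had 24, 38 and 28 CpG sites. The median over 27305 RefSeq promoters of the same length was 11 CpG sites and 58.0% GC. The GC box was found in 7 of the 10 genes and in 42.3% of all promoters, and adjacent GC boxes overlap each other in OLFML2A and TINAGL1. CCAAT was found in 3 (GPAT2, C1orf115 and NTM) and in 33% of all promoters, and the TEAD motif in DENND2A alone and in 11.9% of all. None of the 10 windows held TATAAA, found in 11.1% of all promoters, or the AP-1 motif TGANTCA, found in 6.6%, or the cyclic AMP element TGACGTCA, found in 1.77%.

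OLFML2A (chr9:124777133-124814885, plus strand) encodes a secreted protein with an olfactomedin domain, a fold found in extracellular matrix and in receptors. Its libraries held 17.1, 16.8 and 16.8 CPM at P3, 43.0, 35.1 and 39.0 at P11, 14.1, 12.2 and 12.7 at P24, 3.59, 2.68 and 3.95 at P30 and 2.06, 1.18 and 1.64 at P33. It was highest at P11, 2.31-fold above P3, and no 2 neighbouring passages in the order of levels overlapped. From P24 to P30 it was 3.87-fold lower (log2 fold change -1.95, SE 0.136), and at P33 it was 10.3-fold below P3 (-3.36, SE 0.138).

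Other olfactomedin proteins went both ways at P33 with P3. Of 12 listed, 9 were tested and 3 rose and 5 fell, with a median log2 fold change of -0.57 against 0.03 over all genes with reads. The secreted OLFML1 fell to 0.957 ± 0.0587 CPM at P33, against 9.4 ± 0.981 CPM at P3 (SD, n = 3 each, log2 fold change -3.28, edgeR adjusted p = 2.87e-18). OLFML2B, the nearest relative of OLFML2A, fell 2.94-fold, and GLDN, gliomedin, rose to 1.52 ± 0.15 CPM at P33, against 0.366 ± 0.149 CPM at P3.

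TINAGL1 (chr1:31576485-31587686, plus strand) encodes a secreted matrix protein built like a cathepsin B without its activity, known to bind integrins and the EGF receptor. Its libraries held 6.47, 7.24 and 7.75 CPM at P3, 6.74, 6.65 and 6.64 at P11, 13.3, 12.7 and 11.3 at P24, 7.57, 6.68 and 8.29 at P30 and 1.14, 0.518 and 1.16 at P33. P3, P11 and P30 overlapped in order of level (P30 with P3 and P3 with P11), and P24 stood above them all. It was the latest of the 10, 7.86-fold lower at P33 than at P30 (log2 fold change -2.97, SE 0.18) and still at 105% of the P3 mean at P30. LINC01226 overlaps it on the same strand and held 39 reads over all 21 libraries, against 2793 for TINAGL1.

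Basement membrane genes and the receptors of TINAGL1 were mostly lower at P33. Of 15 tested of 16 listed, 12 fell and 2 rose, with a median of -0.33, where 33.3% of all tested genes fell and 34.5% rose. LAMA5, a laminin chain, fell to 4.12 ± 0.366 CPM at P33, against 14.5 ± 0.11 CPM at P3 (log2 fold change -1.81), and COL4A2, a type IV collagen chain, fell 2.02-fold. COL4A5, another chain of that collagen, went the other way and rose to 99.4 ± 3.34 CPM at P33, against 21.8 ± 0.181 CPM at P3 (log2 fold change 2.19, adjusted p = 6.03e-24).

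CNTN3 (chr3:74262568-74614659, minus strand) encodes contactin 3, an immunoglobulin-family adhesion protein held to the membrane by a lipid anchor and best known from neurons. Its libraries held 22.1, 21.0 and 21.9 CPM at P3, 30.1, 27.8 and 28.3 at P11, 15.6, 12.8 and 15.3 at P24, 2.87, 2.42 and 2.79 at P30 and 1.47, 1.18 and 1.4 at P33. It was highest at P11 and lower at every later passage, with no overlap between passages. It was 5.43-fold lower at P30 than at P24 (log2 fold change -2.44, SE 0.12) and 15.9-fold lower at P33 than at P3 (-3.99, SE 0.12).

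NTM (chr11:131370478-132336822, plus strand) encodes neurotrimin, a lipid-anchored adhesion protein of the IgLON family. Its libraries held 31.4, 34.8 and 37.2 CPM at P3, 24.8, 23.3 and 23.8 at P11, 17.2, 16.9 and 18.7 at P24, 3.15, 2.79 and 2.4 at P30 and 14.7, 11.4 and 15.8 at P33. P33 thus lay just below P24 and well above P30, with no overlap between any neighbours. The step from P24 to P30 was 6.26-fold down (log2 fold change -2.65, SE 0.138) and that from P30 to P33 was 4.95-fold up (2.31, SE 0.141).

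Of 9 other contactins and IgLON proteins only 4 passed the count filter, and all 4 passed the test at P33 with P3, 2 higher and 2 lower. CNTN1, contactin 1, rose to 8.29 ± 1.42 CPM at P33, against 0.344 ± 0.132 CPM at P3 (log2 fold change 4.61, adjusted p = 5.11e-18). The IgLON members LSAMP and NEGR1 fell 2.58-fold and 2.08-fold.

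EPB41L3 (chr18:5392381-5630700, minus strand) encodes band 4.1B, which links membrane proteins to the spectrin and actin network and is known as a tumour suppressor. Its libraries held 98.7, 94.8 and 95.4 CPM at P3, 74.5, 69.3 and 73.3 at P11, 56.6, 60.0 and 58.2 at P24, 31.7, 33.9 and 33 at P30 and 7.62, 7.34 and 4.97 at P33. Each passage was below the one before it with no overlap. The largest step was the last, 4.91-fold down from P30 to P33 (log2 fold change -2.30, SE 0.0956).

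Of 11 other band 4.1 proteins and partners 5 fell and 4 rose at P33 with P3, with a median of -0.44. EPB41L2, band 4.1G, fell to 157 ± 4.22 CPM at P33, against 268 ± 19.8 CPM at P3, and SPTBN1, the beta chain of spectrin, fell 1.79-fold. EPB41L4B, a more distant relative, rose 1.97-fold at a low level (1.79 CPM at P33 and 0.888 CPM at P3).

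PPP1R14A (chr19:38251237-38256532, minus strand) encodes a small protein that, once phosphorylated by protein kinase C, inhibits myosin phosphatase and so keeps myosin light chain phosphorylated, chiefly in smooth muscle. Its libraries held 6.24, 4.89 and 5.59 CPM at P3, 7.0, 6.3 and 5.94 at P11, 2.73, 2.89 and 2.57 at P24, 2.49, 0.894 and 2.32 at P30 and 0.295, 0.471 and 0.386 at P33. P3 and P11 overlapped, and P30 was the most scattered passage, with replicate 2 below the other two. It was 4.8-fold lower at P33 than at P30 (log2 fold change -2.26, SE 0.331), from 7 to 10 reads a library at P33. SPINT2 overlaps it on the opposite strand and held 1.91 CPM at P33 and 5.34 CPM at P3, and because no source used here says whether reads were counted by strand, the level of PPP1R14A is uncertain to that extent.

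Most of the listed genes around PPP1R14A were lower, several of them slightly. Over all tested genes 33.3% fell and 34.5% rose. Of 20 tested members of the myosin phosphatase list (21 listed), 17 fell and 1 rose at P33 with P3, with a median of -0.44. MYL9, the myosin light chain that the phosphatase acts on, fell to 386 ± 45.7 CPM at P33, against 1260 ± 30.3 CPM at P3 (log2 fold change -1.70, adjusted p = 4.23e-17). It averaged 1100 ± 71.8 CPM at P30, so it too was lowest at P33. MYL12B, another light chain, fell 2.5-fold, PPP1CA, a catalytic subunit, fell 2.36-fold, and PPP1R12A, the targeting subunit that holds the catalytic one to myosin, fell 1.27-fold.

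C1orf115 (chr1:220690363-220699153, plus strand) encodes a small membrane protein known to affect drug efflux through the pump ABCB1. Its libraries held 39.4, 37.2 and 41.1 CPM at P3, 38.3, 36.0 and 39.6 at P11, 14.7, 16.1 and 14.6 at P24, 4.36, 4.16 and 3.87 at P30 and 1.77, 2.17 and 2.27 at P33. P3 and P11 overlapped, and each later passage was lower than the one before without overlap. The steps were 2.51-fold down from P11 to P24, 3.64-fold to P30 (log2 fold change -1.86, SE 0.0975) and 2.02-fold to P33.

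ABCB1, which pumps many drugs out of the cell, doxorubicin among them, ran the other way. It averaged 0.532 ± 0.135 CPM at P3, 0.715 ± 0.148 at P11, 13.9 ± 0.573 at P24, 24.1 ± 0.908 at P30 and 48.0 ± 5.58 at P33 (SD, n = 3 each). At P33 with P3 its log2 fold change was 6.45 (SE 0.146, adjusted p = 9.72e-27). Of the 9 efflux pumps on the list 5 rose and 1 fell, with a median of 0.46. ABCC2 rose 4.79-fold at a low level (1.82 CPM at P33 and 0.387 CPM at P3). ABCB4 rose 3.58-fold (18.0 CPM at P33 and 5.03 CPM at P3).

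DENND2A (chr7:140518420-140673993, minus strand) encodes a DENN-domain protein that activates the small GTPase RAB9, which serves traffic from late endosomes to the Golgi. Its libraries held 14.3, 11.2 and 15.7 CPM at P3, 19.1, 20.2 and 19.3 at P11, 14.3, 14.2 and 13.5 at P24, 1.88, 1.0 and 0.852 at P30 and 7.92, 7.06 and 10.6 at P33. P3 and P24 overlapped, P30 lay far below every other passage, and P33 lay between P30 and P3. The step to P30 was 10.9-fold down (log2 fold change -3.45, SE 0.189) and that to P33 was 6.62-fold up (2.73, SE 0.202). ADCK2 overlaps DENND2A on the opposite strand and averaged 5.93 CPM at P3, 6.15 CPM at P30 and 9.88 CPM at P33, and how far reads of that gene enter the P33 level of DENND2A was not tested.

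Of 17 genes on the DENN family and RAB9 list, 15 were tested on reads in these groups, and 7 rose and 1 fell at P33 with P3, with a median of 0.09. RAB9B passed the filter but had no reads at P3 or P33 and is left out. It shares its strand and part of its span with another gene, and averaged 2.68 CPM with DOX and 2.0 CPM with DMSO. Those libraries were counted differently, as set out below, and the part of this in its missing passage reads was not tested. DENND6B and DENND5B rose 1.86-fold and 1.6-fold, and DENND3, an exchange factor for RAB12, fell 1.44-fold. RAB9A averaged 35.2 ± 2.0 CPM at P33 and 37.0 ± 0.594 CPM at P3 (adjusted p = 0.317).

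GPAT2 (chr2:96021946-96039451, minus strand) encodes a mitochondrial glycerol-3-phosphate acyltransferase, an enzyme of the first step of glycerolipid synthesis that is found mainly in testis and is tied to piRNAs in mouse. Its libraries held 4.99, 5.2 and 5.25 CPM at P3, 4.49, 3.94 and 4.68 at P11, 4.67, 4.73 and 4.83 at P24, 1.1, 0.526 and 0.93 at P30 and 0.337, 0.235 and 0.193 at P33. The first 3 passages lay close together, with P11 and P24 overlapping, and the gene was 5.61-fold lower at P30 than at P24 (log2 fold change -2.49, SE 0.204). At P33 it was 19.5-fold below P3 (-4.28, SE 0.233), on 4 to 8 reads a library. With so few reads this SE is smaller than counting error alone, so the size of the fall is less certain than it states. GPAT2P1, a near copy on the same chromosome that could share its reads, held 1 read summed over the P33 libraries and 66 over the P3 libraries, where GPAT2 held 17 at P33 and 370 at P3. FAHD2CP overlaps GPAT2 on the opposite strand and had 3.23 CPM at P33 and 1.65 CPM at P3.

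Of 13 tested enzymes of glycerolipid synthesis, 6 fell and none rose at P33 with P3, with a median of -0.25. GPAT3, an acyltransferase of the endoplasmic reticulum, fell to 1.64 ± 0.271 CPM at P33, against 3.21 ± 0.0452 CPM at P3, and LPIN1, a phosphatidate phosphatase, fell 1.29-fold. GPAM, the other mitochondrial acyltransferase, averaged 16.8 ± 2.18 CPM at P33 and 18.5 ± 1.83 CPM at P3 (adjusted p = 0.137). Of 12 piRNA genes 7 were tested, with 4 higher and 1 lower: TDRD9, a helicase of the pathway, fell to 0.232 ± 0.13 CPM at P33, against 3.92 ± 0.61 CPM at P3 (log2 fold change -4.08). PIWIL2 rose 3.38-fold at a low level (1.0 CPM at P33 and 0.298 CPM at P3), and MOV10L1 rose 3.06-fold (19.6 CPM at P33 and 6.39 CPM at P3).

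RGCC (chr13:41457550-41470871, plus strand) encodes a regulator of the cell cycle that binds the kinase CDK1 and is induced by complement and by TGF-beta. Its libraries held 11.8, 13 and 11.2 CPM at P3, 16.4, 16.2 and 19.0 at P11, 10.8, 12.4 and 12.4 at P24, 0.884, 0.684 and 1.01 at P30 and 5.85, 3.48 and 4.92 at P33. P3 and P24 overlapped, and P30 lay below every library of P33. It had the largest single step of the 10 genes, 14.1-fold down from P24 to P30 (log2 fold change -3.81, SE 0.185), and was 5.65-fold higher at P33 than at P30 (2.50, SE 0.215).

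CDK1, the mitotic kinase that RGCC binds, was also lowest at P30. It averaged 36.7 ± 2.1 CPM at P3, 23.0 ± 0.681 at P11, 18.3 ± 2.2 at P24, 11.7 ± 0.55 at P30 and 20.6 ± 2.07 at P33. MKI67, a marker of dividing cells, averaged 510 CPM at P3, 269 at P11, 256 at P24, 106 at P30 and 153 at P33, and its part in the P30 levels of RGCC, NTM and DENND2A was not tested. At P33 with P3, 6 of the 14 CDK1 and TGF-beta partners of RGCC fell and 4 rose, with a median of -0.10, and the mitotic genes CCNB1, PLK1 and CCNB2 fell 2.84-fold, 2.79-fold and 2.46-fold.

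Among the 10 genes, levels over the 15 passage libraries followed each other most closely for C1orf115 and CNTN3 (Pearson r of log2 CPM 0.98), CNTN3 and OLFML2A (0.98), and RGCC and DENND2A (0.97). Across the 6753 protein-coding genes searched, with at least 5 CPM on average, the courses most like each were EDIL3 and ANXA11 for GPAT2 (both 0.98), TRIM55 and CXCL12 for C1orf115 (0.995 and 0.99) and PRUNE2 and OLFML2B for CNTN3 (both 0.989). They were EML4 and SUCLG2 for PPP1R14A (0.967 and 0.963), XRCC5 and CSPG4 for EPB41L3 (0.989 and 0.985), ACAT2 and ACLY for OLFML2A (0.988 and 0.985) and GPSM2 and EML1 for RGCC (0.98 and 0.975). NCAPG and MT2A were nearest to NTM (both 0.978), CDC7 and RGCC itself to DENND2A (0.985 and 0.967) and RPL22L1 and RIPK1 to TINAGL1 (0.977 and 0.972). The points share 5 passages of 3 libraries, so these values describe likeness of course only.

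The choice of the members took the largest falls of several comparisons. Among protein-coding genes with at least 5 CPM in the higher group, GPAT2, C1orf115, CNTN3, PPP1R14A and EPB41L3 held ranks 1 to 5 of 10207 for P33 with P3, and just outside came PENK (14.4-fold lower, 2.13 CPM at P33 and 30.5 CPM at P3) and MEDAG (14.1-fold). OLFML2A and TINAGL1 held ranks 17 and 29 there, RGCC and NTM 247 and 264, and DENND2A 1506. For P30 with P3, RGCC, NTM and DENND2A held ranks 1, 2 and 4 of 10081, with NFE2L3 (11.2-fold) and MMP1 (10.5-fold) beside them. For P30 with P24, RGCC and DENND2A held ranks 1 and 2 of 10028, ahead of HAPLN1 (9.7-fold). For P33 with P30, TINAGL1 held rank 2 of 10079, between SAMD11 (8.06-fold) and ANO3 (7.35-fold).

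The series title sets doxorubicin-induced beside replicative senescence, and DOX against DMSO gives the response of the same genes to the drug in P11 cells. With DOX 7 of the 10 genes were lower, 2 were higher and 1 did not pass (edgeR quasi-likelihood test, Benjamini-Hochberg adjusted over 16821 genes). Over all tested genes 37.3% passed, 20.6% lower and 16.7% higher. OLFML2A, RGCC and NTM both passed and were lower by at least 2-fold, where 3.53% of all genes did both. The median log2 fold change of the 10 was -0.59, against -0.01 over all genes. DOX and DMSO libraries did not overlap for any of the 9 genes that passed, which held for 23.3% of all genes in the lower direction and 19.5% in the higher.

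**Figure D3:**
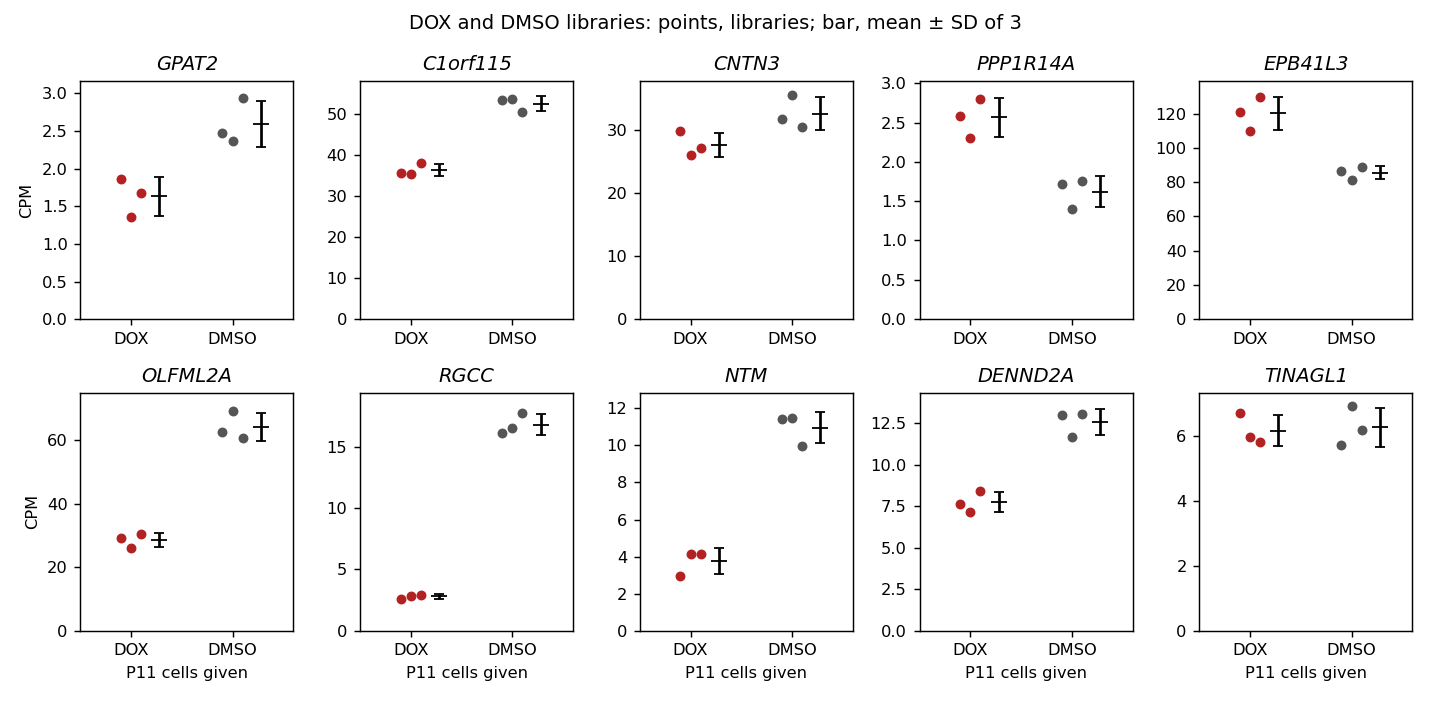
Level of each of the 10 genes in CPM in the 3 DOX and 3 DMSO libraries of P11 cells, points being libraries and bars the mean ± SD. RGCC (2.8 against 16.8 CPM), NTM and OLFML2A show the widest gaps as a ratio, PPP1R14A and EPB41L3 stand higher with DOX, and TINAGL1 overlaps.

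RGCC had the largest fold difference of the 10, with 2.58, 2.86 and 2.96 CPM in the DOX libraries, against 16.1, 16.6 and 17.7 CPM in the DMSO libraries. It fell 6.01-fold (log2 fold change -2.59, SE 0.132, adjusted p = 5.01e-17). Its partner CDK1 fell to 1.26 ± 0.121 CPM with DOX, against 15.2 ± 1.4 CPM with DMSO (-3.59), and the mitotic genes PLK1 and CCNB2 fell 6.09-fold and 4.8-fold. Of the 14 partners 6 fell and 1 rose, with a median of -0.09. MKI67 averaged 8.7 ± 1.62 CPM with DOX and 151 ± 16.9 CPM with DMSO, LMNB1, a nuclear lamin, 2.59 and 18.1 CPM, and CDKN1A, the inhibitor p21, 488 and 145 CPM. Of the 7 listed proliferation and senescence genes 3 rose and 3 fell with DOX. CDKN2A, on the same list, was not called (4.99 CPM with DOX and 5.33 CPM with DMSO, edgeR adjusted p = 0.679). At P33 with P3, 3 of the 7 rose and 4 fell, CDKN2A among the lower (11.8 CPM at P33 and 16.6 CPM at P3). The part of these genes in the fall of RGCC was not tested.

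Of the adhesion proteins, NTM held 2.94, 4.16 and 4.13 CPM with DOX, against 11.4, 11.5 and 9.98 CPM with DMSO, with a wide gap between the groups. It fell 2.96-fold (log2 fold change -1.57, SE 0.133, adjusted p = 1.67e-11). CNTN3 held 29.7, 26.0 and 27.1 CPM with DOX, against 31.7, 35.4 and 30.4 CPM with DMSO, close to each other but apart. Its fall was small (-0.23, SE 0.0735, adjusted p = 0.013), and it did not pass in a fit of the 6 DOX and DMSO libraries alone (adjusted p = 0.0586), without DOX replicate 2 (0.0591) or without DMSO replicate 2 (0.133). Among the other contactins and IgLON proteins 2 of 4 rose and none fell, with a median of 0.43. NEGR1 rose to 32.2 ± 7.02 CPM with DOX, against 24.4 ± 2.76 CPM with DMSO, and LSAMP rose 1.38-fold (adjusted p = 0.0289), a call lost in 6 of the 12 alternatives (adjusted p 0.0526 to 0.217).

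Of the secreted proteins, OLFML2A held 29.3, 26.1 and 30.5 CPM with DOX, against 62.6, 69.2 and 60.5 CPM with DMSO, every DOX library being far below every DMSO library. It fell 2.24-fold (log2 fold change -1.16, SE 0.08, adjusted p = 9.78e-14). TINAGL1 held 6.7, 5.97 and 5.81 CPM with DOX, against 5.72, 6.91 and 6.16 CPM with DMSO, and the groups overlapped (-0.01, SE 0.13, adjusted p = 0.964). In the olfactomedin list 6 of 9 fell and 1 rose with DOX, with a median of -0.73: OLFML2B fell to 5.82 ± 0.229 CPM with DOX, against 28.1 ± 1.37 CPM with DMSO, and OLFML3, another secreted member, fell 2.18-fold. GLDN fell 2.15-fold. Of the 15 basement membrane genes 7 rose and 3 fell, with a median of 0.12, among them COL4A5 (38.5 ± 0.485 CPM with DOX, against 16.8 ± 1.73 CPM with DMSO), HSPG2, the proteoglycan perlecan, which rose 1.87-fold, and LAMC1, a laminin chain, which rose 1.62-fold.

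Both cytoskeletal genes were higher with DOX. EPB41L3 held 121, 110 and 130 CPM with DOX, against 86.7, 81.4 and 88.9 CPM with DMSO, with no overlap. It rose 1.4-fold (log2 fold change 0.49, SE 0.0674, adjusted p = 4.19e-07). PPP1R14A held 2.58, 2.31 and 2.8 CPM with DOX, against 1.71, 1.39 and 1.76 CPM with DMSO, also apart. It rose 1.57-fold (0.65, SE 0.227, adjusted p = 0.023), but did not pass without DOX replicate 1 (0.0549), DOX replicate 3 (0.0724) or DMSO replicate 2 (0.0778). SPINT2 on the opposite strand averaged 8.19 CPM with DOX and 6.77 CPM with DMSO. The myosin phosphatase list had 6 lower and 2 higher of 20, with a median of -0.07. PPP1R14C, an inhibitor of the same family, rose to 1.67 ± 0.296 CPM with DOX, against 0.619 ± 0.411 CPM with DMSO, PPP1CA and the kinase ROCK2 fell 1.38-fold and 1.32-fold, and MYL9 averaged 766 ± 140 CPM with DOX and 767 ± 79.3 CPM with DMSO (adjusted p = 0.995). In the band 4.1 list 3 of 11 rose and 2 fell, with a median of 0.04. EPB41L4B rose 1.98-fold (1.87 CPM with DOX and 0.969 CPM with DMSO), the adhesion protein CADM1 rose 1.25-fold and EPB41L1 fell 1.28-fold.

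C1orf115 held 35.6, 35.3 and 38.0 CPM with DOX, against 53.4, 53.8 and 50.5 CPM with DMSO, with no overlap. It fell 1.45-fold (log2 fold change -0.53, SE 0.0604, adjusted p = 9.41e-09). ABCB1 rose to 1.21 ± 0.313 CPM with DOX, against 0.339 ± 0.153 CPM with DMSO (1.90, SE 0.337, adjusted p = 2.59e-05). Of the 9 pumps 3 rose and 3 fell, with a median of -0.04, and ABCB4 and ABCC4 fell 2.7-fold and 1.63-fold.

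DENND2A held 7.66, 7.18 and 8.41 CPM with DOX, against 13, 11.7 and 13 CPM with DMSO, with no overlap. It fell 1.63-fold (log2 fold change -0.70, SE 0.13, adjusted p = 5.04e-05). RAB9A, the GTPase that DENND2A activates, fell to 37.1 ± 1.78 CPM with DOX, against 53.1 ± 2.0 CPM with DMSO (-0.52, adjusted p = 1.34e-08). Of the 16 tested genes of that list 5 fell and 4 rose, with a median of -0.05, DENND3 falling 1.5-fold and DENND2C rising 1.52-fold.

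GPAT2 held 1.86, 1.35 and 1.68 CPM with DOX, against 2.48, 2.36 and 2.93 CPM with DMSO, apart by less than 1 CPM. It fell 1.57-fold (log2 fold change -0.65, SE 0.187, adjusted p = 0.00599). GPAT2P1 held 18 reads in the DOX libraries together and 16 in the DMSO libraries, where GPAT2 held 106 with DOX and 144 with DMSO. Of the 13 glycerolipid enzymes 5 fell and 1 rose, with a median of -0.25: AGPAT4, an acyltransferase of the next step, fell to 5.66 ± 0.95 CPM with DOX, against 10.4 ± 1.17 CPM with DMSO, and LPIN1 and AGPAT2 fell 1.45-fold and 1.33-fold. GPAM averaged 22.9 ± 2.34 CPM with DOX and 23.9 ± 0.313 CPM with DMSO (adjusted p = 0.621). Of 7 piRNA genes 1 passed, HENMT1, a small-RNA methyltransferase, which rose 1.64-fold.

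**Figure D4:**
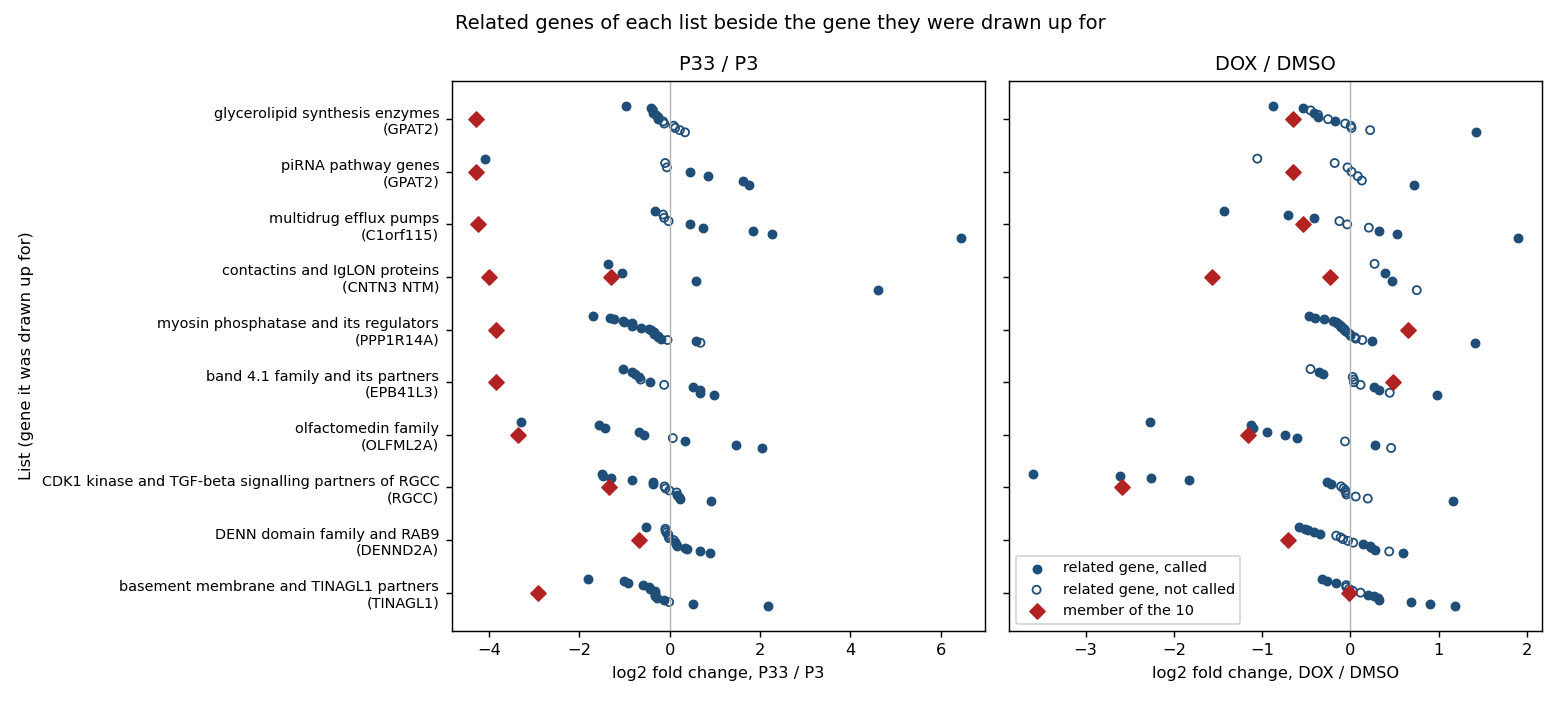
Log2 fold changes of the listed related genes, filled where called and open where not, beside the member they were drawn up for (red diamonds), for P33 with P3 (left) and DOX with DMSO (right). ABCB1 lies farthest to the right in both panels among the efflux pumps (6.45 and 1.90), opposite in sign to C1orf115.

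Over all 10 lists, of 134 related genes 117 were tested on reads at P33 with P3 and 118 with DOX. At P33 with P3, 32 rose (27.4%) and 56 fell (47.9%), where 34.5% and 33.3% of all genes did. With DOX 25 rose (21.2%) and 36 fell (30.5%), where 16.7% and 20.6% of all genes did. The shares of all genes count genes without reads in either group, 719 at P33 with P3 and 109 with DOX. None of these was called, and the shares of related genes leave such genes out. Where a listed gene shares its strand and part of its span with another gene, its counts are uncertain. Of those named, this holds for LPIN1, TDRD9, MOV10L1, CNTN1, LSAMP, NEGR1, PPP1R14C, PPP1R12A, EPB41L4B, CADM1, SPTBN1, OLFML3, GLDN, CCNB2, DENND5B, RAB9B, COL4A2, LAMA5 and ANO3.

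The courses over passage and the DOX values did not run in parallel for every gene. RGCC, NTM and DENND2A, which were lowest at P30, fell with DOX by 2.59, 1.57 and 0.70 on the log2 scale. EPB41L3 and PPP1R14A, with log2 fold changes of -3.85 each at P33 with P3, rose by 0.49 and 0.65 with DOX. The call of EPB41L3 held in 12 of 12 alternatives and that of PPP1R14A, on few reads, in 9. TINAGL1, at -2.91 at P33 with P3, did not pass with DOX. The difference between the DOX and the passage values was not tested, since passage chose the members.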

How the data were processed

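Per the labels, poly(A)-selected RNA was primed with random hexamers and sequenced on a DNBSEQ-T7. The authors deposited raw read counts per gene. The submitters' processing notes name HISAT2 2.1.0, featureCounts 2.0.1 of Subread, SAMtools 1.11, cutadapt 3.3, FastQC 0.11.9 and DESeq2 1.34.0, on hg38 (GRCh38.p13), with options not given in the sources used here. Of 9429 genes wholly inside another gene of their strand, 0 had reads in the 15 passage libraries. In the 6 DOX and DMSO libraries 3950 of them had reads. No test was therefore made across these parts, and DMSO and untreated P11 levels are only set side by side. None of the 10 genes lies wholly inside another gene of its strand.

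Here genes were filtered with filterByExpr (minimum count 10, 16821 of 61544 kept), scaled by TMM (factors 0.899 to 1.13) and fitted with edgeR 4.0.16 (limma 3.58.1, R 4.3.3) as 1 quasi-likelihood model of the 7 group means over 21 libraries (14 residual degrees of freedom, biological coefficient of variation 5.48%). Tests were two-sided and adjusted by Benjamini-Hochberg at 0.05. CPM use TMM-scaled library sizes, and lengths in the table include introns, so levels were not compared between genes. Errors after ± are SD. Each SE is the absolute log2 fold change divided by the square root of the F statistic of that model. For large changes this SE can be smaller than counting error alone and then overstates precision. This holds for SEs given for GPAT2, RGCC, CNTN3, C1orf115, OLFML2A, TINAGL1 and ABCB1, and not only where reads were few. The members and lists were chosen with earlier results of these data known. Named from each list were up to 3 genes that passed, with the largest log2 fold change and at least 1 CPM. To these were added 6 targets, partners or relatives of members, ABCB1, CDK1, MYL9, PPP1R12A, GPAM and RAB9A. CDKN1A, CDKN2A, RAB9B and some cell-type markers were named outside this rule. Alternatives were RLE scaling, no count filter, a minimum count of 50, DESeq2 1.42.0, libraries of one part only, a replicate block and each library left out. Low counts limit GPAT2 and PPP1R14A most, and intervals on counts would cover counting error only.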

Additional observations from a re-analysis of the deposited data

How the results depend on the processing

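All 12 alternatives for DOX with DMSO kept between 6 and 7 members lower, against 7 as reported, and between 1 and 2 higher, against 2. Leaving out each DOX or DMSO library in turn gave 1 to 2 members higher, the 1 being without DOX replicate 1, DOX replicate 3 or DMSO replicate 2, where PPP1R14A did not pass. The sign of TINAGL1, which passed nowhere, turned to 0.015 with a minimum count of 50 and to 0.0104 with the libraries of one part only, and ran from -0.0868 to 0.0716 with a library left out, for causes not tested. The count of 7 members with their largest step between P24 and P30 was the same in all 21 alternatives. Falls in the same libraries chose the members, so this is no independent test of the step. Genes called with DOX ran from 5212 to 6248, and from 9408 to 11993 for P33 with P3. The replicate numbers did not pair the samples: same-numbered DOX and DMSO libraries had correlations of 0.134, -0.315 and 0.0934, and P33 and P3 ones of -0.0147, 0.0114 and 0.0245. With the replicate block 7 members were lower and 2 higher, and 6221 genes passed. Of all the alternative values, 114 of 117 counts stayed near their value, 782 of 799 tests kept both their direction and their side of the threshold, 12 lost their call and 5 turned in sign without passing, all 5 in TINAGL1. Of 252 untested passage values 2 moved by more than 1 SD, DENND2A for P30 with P24 to -3.89 without P30 replicate 1 and GPAT2 for P33 with P3 to -4.55 without P33 replicate 1.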

Other observations

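The DMSO libraries and the untreated P11 libraries are both of P11 cells, but they stand in the differently counted parts of the table, so solvent, handling and counting cannot be told apart and no test was made. RGCC averaged 16.8 ± 0.841 CPM with DMSO and 17.2 ± 1.56 CPM in untreated P11 cells, and CNTN3 32.5 ± 2.6 and 28.7 ± 1.21 CPM. PPP1R14A averaged 1.62 ± 0.199 CPM with DMSO and 6.41 ± 0.537 CPM untreated, NTM 10.9 ± 0.841 and 24 ± 0.725 CPM, GPAT2 2.59 ± 0.301 and 4.37 ± 0.384 CPM, and DENND2A 12.6 ± 0.764 and 19.5 ± 0.599 CPM. OLFML2A averaged 64.1 ± 4.53 CPM with DMSO and 39.0 ± 3.99 CPM untreated, and C1orf115 52.5 ± 1.81 and 38.0 ± 1.81 CPM (SD, n = 3 each). The DOX value of each gene is therefore read against DMSO alone.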
